A study of Mus musculus with 4 samples.

Results

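The genes described here make and equip the lysosome, and they comprise 43 genes listed by symbol: 3 transcription factors of the MiT/TFE family (Tfeb, Tfe3 and Mitf), 6 lysosomal membrane proteins, 4 parts of the vacuolar proton pump (V-ATPase), 3 soluble proteins that are not enzymes and 27 lysosomal enzymes. They were taken by name, with earlier results of these data known, from 47937 genes in the count table. All 43 were found, and 42 of them were among the 16240 genes that passed the filter on low counts. Total RNA was sequenced from mouse embryonic fibroblasts (MEF cells), connective tissue cells grown from embryos. The labels call the untreated cells wild-type and give no genotype for the genistein cells. The untreated group had 2 libraries, and the genistein group had 2 libraries of cells exposed to 50 µM of the isoflavone for 24 h. Whether the untreated cultures received the solvent of the compound was not stated for these libraries. The labels do not say that the 2 libraries of a group came from separate cultures, so p-values measure only the spread between these libraries, which may be technical.

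The lysosome is the acidic compartment in which a cell digests proteins, glycans, lipids and its own worn parts. Its enzymes work at low pH, which the V-ATPase maintains by pumping protons across a membrane guarded by heavily glycosylated proteins. TFEB and its relatives TFE3 and MITF bind an E-box with flanking bases in the promoters of many lysosomal genes. When the kinase complex mTORC1 is active at the lysosomal surface it phosphorylates TFEB, which then stays in the cytoplasm, so TFEB activity is set largely by location and not only by RNA level. Genistein has been described elsewhere as an activator of TFEB, and it has been studied in disorders of glycosaminoglycan breakdown.

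The libraries held 28591958 to 31464284 counts over genes and repeats. The 43 genes took 0.351% and 0.346% of all gene counts when untreated, against 0.636% and 0.640% after genistein. A normalised read count is a count scaled to the mean effective library size, and a log2 fold change always compares genistein with untreated. A gene was called when its adjusted p was under 0.05 (Benjamini-Hochberg, taken over every tested gene and repeat) in the quasi-likelihood test of edgeR, and each adjusted p below comes from that fit. Fibroblast markers were high (Col1a1 at 76193 and Fn1 at 152208 normalised counts in untreated 1), although Thy1 had no count in any library. Of the 8 tested fibroblast markers, 2 were called higher (Dcn and Fn1) and 6 lower, and their summed normalised count was 428152 and 439972 without genistein and 418064 and 408902 with it. Of 10 macrophage markers, which mark a cell type rich in lysosomes, Adgre1, Aif1 and Tyrobp had no count and Ptprc had at most 1 raw count per library. Csf1r and Cd68 were counted in every library and were called higher, with log2 fold changes of 1.46 and 1.5. The summed normalised count of the macrophage list was 217 and 209 without genistein and 573 and 587 with it. Csf1r and Cd68 made up most of this sum, and every other marker of the list had at most 16 raw counts per library. Among 6 melanocyte markers, relevant because Mitf acts in that lineage, Tyr, Tyrp1, Dct and Sox10 had no count and the summed level lay between 4.23 and 13.1. Of 6 epithelial markers, Epcam and Krt5 had no count, while Krt8, Krt14 and Krt18 were called lower and the summed level went from 1163 and 1129.6 without genistein to 251 and 231 with it. The part of other cells in the results below was not tested. In bulk RNA, fewer cells of a type and less RNA per cell cannot be told apart.

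Genistein was accompanied by higher RNA of most of these genes. Of the 42 tested genes, 36 were called higher and 2 were called lower, which is 85.7% and 4.76%, and 4 were not called. The background was broad, since 33.5% of all tested genes were called higher and 38.2% were called lower. Among genes with a mean normalised count over 100, to which 41 of the 42 belonged, 33% were called higher and 47.2% lower, against 36 and 2 of these 41. The median log2 fold change of the 42 genes was 0.71, and that of all tested genes was -0.033. Both genistein libraries lay above both untreated libraries for 37 of the 42 genes and below them for 3, or 88.1% and 7.14%, while 40.7% and 44.6% of all tested genes were separated in those directions. A stricter rule taken from the study, which also asks for a log2 fold change beyond 1 in size and more than 100 normalised counts on average, was met by 11 genes that were higher, or 26.2%, and by 0 that were lower. The same rule was met by 3.92% of all tested genes in the higher direction and by 4.16% in the lower direction. With DESeq2 the counts under the stricter rule were again 11 and 0. Because the list was chosen with earlier results of these data known, these shares are a description and no test was made over the list.

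**Figure D1:**
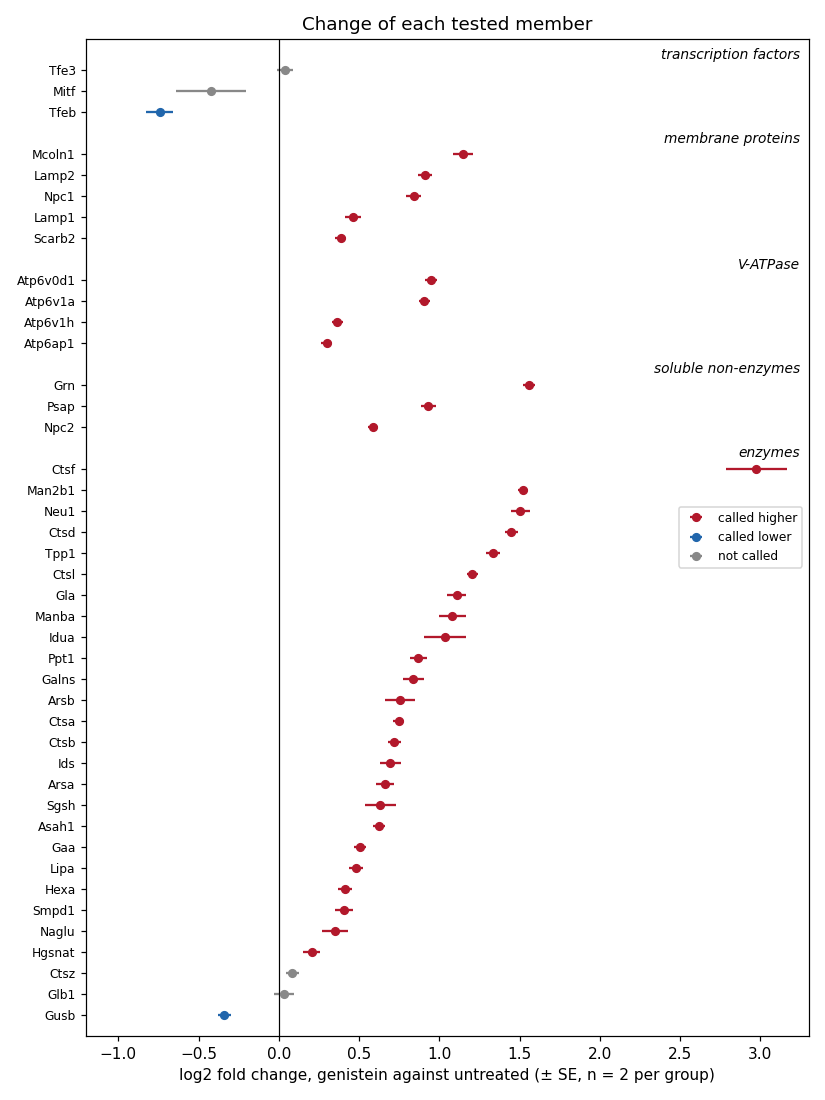
Log2 fold change of each of the 42 tested genes on the horizontal axis, with its standard error as a bar (n = 2 libraries per group), grouped by role; red genes were called higher, blue lower and grey not called. Ctsf stands farthest to the right at 2.97, and Tfeb and Gusb are the blue points at -0.74 and -0.34.

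None of the 3 transcription factors was called higher. Tfeb, the factor after which the network is named, had 399.6 and 412 normalised counts when untreated, against 251 and 233 after genistein. Both genistein libraries lay below both untreated libraries, and the log2 fold change came to -0.74 (standard error 0.085, adjusted p = 8.3e-07), or 59.8% of the untreated level. Tfe3, which binds the same sites, had 1263 and 1233 normalised counts without genistein, compared with 1315 and 1247 in its presence. Its libraries overlapped between groups, and the log2 fold change of 0.038 was not called (adjusted p = 0.51), with a 95% interval from -0.068 to 0.14. Mitf, best known from pigment cells, was scarce at untreated normalised counts of 48.9 and 51.9 and treated ones of 31.9 and 43.5. Although its genistein libraries both lay below the untreated ones, the log2 fold change of -0.42 was not called (adjusted p = 0.093), and its 95% interval ran from -0.89 to 0.041. Levels of different genes were compared in CPM per kilobase, which is the count scaled to library size (CPM) and divided by the length of the merged exons. On this scale the untreated level was 4.51 for Tfe3, 2.39 for Tfeb and 0.272 for Mitf, and in the genistein libraries it was 4.62, 1.43 and 0.203. Tfe3 was thus the most abundant RNA of the family in both groups. The RNA level gives no measure of where these proteins were in the cell.

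The lysosomal membrane proteins rose wherever they could be tested. Mcoln1, the calcium channel of the lysosomal membrane, had 466 and 452 normalised counts when untreated, against 1049 and 982 after genistein, the largest change of the class with a log2 fold change of 1.15 and a standard error of 0.062 (adjusted p = 8.3e-11). Lamp2, one of the glycoproteins that line the inner face of the membrane, had 6979.7 and 6765 normalised counts without genistein, compared with 12749 and 13115 in its presence. Its log2 fold change was 0.91 (standard error 0.044, adjusted p = 1.8e-11). Lamp1, its close relative, had untreated normalised counts of 11984 and 11454 and treated ones of 15858 and 16423, with a smaller log2 fold change of 0.46 (standard error 0.048, adjusted p = 2.2e-07). Lamp1 was the most abundant of the 43 RNAs per length in the untreated libraries, at 146 CPM per kilobase against 24.1 for Lamp2. Npc1, which moves cholesterol out of the lysosome, rose by a log2 fold change of 0.84 (adjusted p = 1.2e-10), from 1034 and 1016 to 1869.8 and 1799 normalised counts. Scarb2, the receptor that carries glucocerebrosidase to the lysosome, had the smallest change of the class at 0.39 (adjusted p = 2.8e-08), with 3767 and 3718 normalised counts when untreated, against 4801 and 4980.0 after genistein. In all 5 of these genes both genistein libraries lay above both untreated libraries, as in 40.7% of all tested genes. A further 44.6% of all tested genes were separated the other way. Cln3, a membrane protein mutated in a childhood storage disease of neurons, had only 6, 7, 2 and 5 raw counts in untreated 1, untreated 2, genistein 1 and genistein 2. It did not pass the filter, and no fold was derived for it.

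All 4 V-ATPase genes were called higher, but at different sizes. Atp6v0d1, a subunit of the membrane sector, had 1882 and 1872 normalised counts without genistein, compared with 3656 and 3581 in its presence (log2 fold change 0.95, standard error 0.036, adjusted p = 1.3e-12). Atp6v1a, the catalytic subunit that splits ATP, had untreated normalised counts of 2647 and 2604 and treated ones of 4912 and 4922 (log2 fold change 0.90, standard error 0.034, adjusted p = 8.6e-13). For these 2 genes both genistein libraries stood well above both untreated ones. Atp6v1h, a regulatory subunit of the cytosolic sector, and Atp6ap1, an accessory protein of assembly, had smaller log2 fold changes of 0.36 and 0.30 (adjusted p = 1.1e-07 and 1.4e-06). Atp6v1h went from 2499 and 2468 to 3182 and 3209 normalised counts. For Atp6ap1 the counts were 3041 and 2917 untreated and 3692 and 3632 with genistein, so the groups did not overlap. The V-ATPase genes had no member past the stricter rule, and their median log2 fold change was 0.63. The other subunits were examined as a list, chosen with earlier results of these data known. Of its 21 further V-ATPase genes, 16 were tested, 13 were called higher (81.2%) and 0 were called lower, with a median of 0.38. Of all tested genes, 33.5% were called higher and 38.2% lower. Atp6ap2, Atp6v1d and Atp6v0a1 had the largest changes at 0.72, 0.63 and 0.62. Atp6v0a4, Atp6v0e2 and Atp6v1g2, named after their values were seen, were not called, and the 5 untested genes had at most 3 raw counts in any library.

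The soluble proteins without enzyme activity were all called higher, as were 33.5% of all tested genes. Grn encodes progranulin, a secreted and lysosomal protein whose loss causes storage disease, and it had 1714 and 1674 normalised counts when untreated, against 5077 and 4888 after genistein. That is a 2.94-fold increase, with a log2 fold change of 1.56 and a standard error of 0.037 (adjusted p = 4.0e-15). Psap, the precursor of the saposins that present glycolipids to their hydrolases, had 12005 and 11460.4 normalised counts without genistein, compared with 22570.5 and 22153 in its presence, a log2 fold change of 0.93 (standard error 0.048, adjusted p = 3.8e-11). In the genistein libraries Psap had the highest level per length of all 43 genes, at 272 CPM per kilobase, where Lamp1 reached 202. Npc2, which hands cholesterol to Npc1 inside the lysosome, rose from 3937 and 3973 to 5872 and 5986 normalised counts, a log2 fold change of 0.58 (adjusted p = 7.7e-11).

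**Figure D2:**
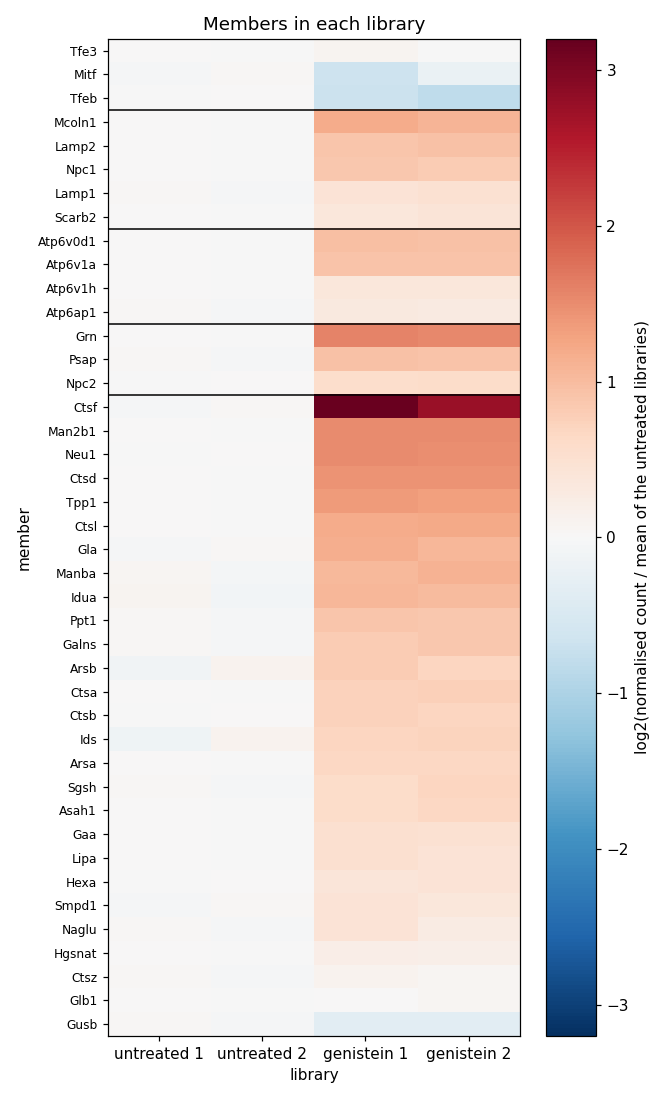
Each row is 1 of the 42 tested genes and each column 1 library; the colour gives the log2 ratio of its normalised count to the mean of the untreated libraries, with black lines between the transcription factors, membrane proteins, V-ATPase, soluble non-enzymes and enzymes from top to bottom. The genistein columns are red for most genes and blue for Tfeb, Mitf and Gusb, and the strongest colour is that of Ctsf.

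Of the 27 enzymes, 24 were called higher and 1 lower, with a median log2 fold change of 0.72. Of the 7 peptidases, 6 were called higher, with a median of 1.21. These counts and those of the enzyme groups below stand beside 33.5% higher and 38.2% lower over all tested genes. Ctsf, a cysteine cathepsin, had untreated normalised counts of 25.97 and 27.5 and treated ones of 238 and 182, which is a 7.86-fold increase and a log2 fold change of 2.97 with a standard error of 0.19 (adjusted p = 6.6e-10). It started from 26 and 26 raw counts in the untreated libraries, and its standard error was the largest among the 38 called genes. Ctsd, the main aspartic protease of lysosomes, was among the most abundant of all, with 4793 and 4647 normalised counts when untreated, against 12873 and 12890.3 after genistein. Its log2 fold change was 1.45 (standard error 0.042, adjusted p = 4.2e-14). Tpp1, which clips tripeptides from protein ends, had 1029 and 1011 normalised counts without genistein, compared with 2622 and 2521 in its presence and a log2 fold change of 1.33 (adjusted p = 1.8e-13). For Ctsl, an endopeptidase, the counts were 2951 and 2872 untreated and 6641 and 6797 with genistein (log2 fold change 1.21, adjusted p = 2.2e-14).

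Smaller rises were seen for Ctsa and Ctsb. Ctsa, the carboxypeptidase that also protects Neu1 and Glb1 in a complex, went from 3183 and 3175 to 5283 and 5379 normalised counts (log2 fold change 0.75, adjusted p = 6.0e-12). Ctsb, an abundant cysteine cathepsin, went from 7404 and 7406 to 12367 and 12025 (log2 fold change 0.72, adjusted p = 2.5e-10). Parts of both lie over genes on the other strand. Pltp overlaps 10.5% of the Ctsa exon bases and rose by a log2 fold change of 1.73, whereas Fdft1 overlaps 12.8% of the Ctsb exon bases and fell by 1.12 on the log2 scale. The library kit keeps the strand, but the strand setting of the counting was not given in the sources used here, so a share of these reads could belong to either gene. Ctsz, a carboxypeptidase, had untreated normalised counts of 2803 and 2626 and treated ones of 2930.3 and 2819. The groups did not overlap, yet the log2 fold change of 0.083 was not called (adjusted p = 0.076), with a 95% interval from -0.003 to 0.17. It was called higher with library totals in place of TMM scaling (0.15), with factors from genes alone (0.13), without untreated replicate 1 (0.13) and without genistein replicate 2 (0.11).

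The enzymes of glycosaminoglycan breakdown, whose loss causes the mucopolysaccharidoses, included the only enzyme that fell. Of the 8 genes, 7 were called higher and 1 lower, with a median log2 fold change of 0.66. The shares over all tested genes were 33.5% and 38.2%. Gusb, the β-glucuronidase that is often used as a reference gene, had 2464 and 2328 normalised counts when untreated, against 1901 and 1885 after genistein. Both genistein libraries were below both untreated ones, and the log2 fold change came to -0.34 (standard error 0.041, adjusted p = 1.4e-06). It was also the most abundant RNA of these 8 per length in both groups, at 17.6 and 13.9 CPM per kilobase. Idua, the iduronidase, had the largest rise of the group, with 88.9 and 78.3 normalised counts without genistein, compared with 174 and 169 in its presence (log2 fold change 1.04, standard error 0.13, adjusted p = 3.1e-06). Without untreated replicate 2 its log2 fold change was 0.95, short of the fold in the stricter rule. Galns, a sulfatase of keratan sulfate, went from 383 and 367 to 656 and 686 normalised counts (log2 fold change 0.84, adjusted p = 1.1e-08).

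The rest of this group rose less. Arsb, a sulfatase of dermatan sulfate, and Ids, the iduronate sulfatase, had log2 fold changes of 0.75 and 0.69 (adjusted p = 2.1e-06 and 5.4e-08). For Arsb the normalised counts were 222 and 258 untreated and 420.1 and 387 with genistein. The untreated libraries of Ids were 865 and 1024, further apart than its genistein libraries at 1515 and 1538, but still below them. Successive steps of heparan sulfate removal are carried out by Sgsh, which takes off a sulfate, Hgsnat, a membrane enzyme that adds an acetyl group, and Naglu, which then removes the sugar. Sgsh changed by 0.63, Naglu by 0.35 and Hgsnat by 0.20 on the log2 scale (adjusted p = 2.7e-05, 0.001 and 0.0021). Sgsh went from 186 and 176 to 272 and 289 normalised counts and Naglu from 377 and 356 to 494 and 438, without overlap of the groups for either. Hgsnat had untreated normalised counts of 1022 and 994 and treated ones of 1170.2 and 1152, and its log2 fold change was the smallest among the 36 genes called higher. Together the 8 genes had summed normalised counts of 5607 and 5581 when untreated, against 6603 and 6544 after genistein, a sum in which Gusb was the largest single part in the untreated libraries.

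Enzymes acting on glycolipids and sphingolipids were called higher in 6 of 7 cases, with a median of 0.62, where 33.5% of all tested genes were called higher. Neu1, the sialidase, had 372 and 379 normalised counts when untreated, against 1076 and 1055 after genistein, a 2.84-fold increase (log2 fold change 1.51, standard error 0.061, adjusted p = 2.4e-12). Gla, the α-galactosidase that is deficient in Fabry disease, had 568 and 599 normalised counts without genistein, compared with 1302 and 1213 in its presence (log2 fold change 1.11, standard error 0.061, adjusted p = 8.7e-11). Arsa, which removes the sulfate of sulfatides, rose by 0.66, and the ceramidase Asah1 rose by 0.62 (adjusted p = 2.1e-08 and 2.3e-10). Their normalised counts went from 668 and 657 to 1051 and 1042 for Arsa and from 2342 and 2310.1 to 3509.8 and 3663 for Asah1. Hexa, a subunit of β-hexosaminidase, and Smpd1, the acid sphingomyelinase, rose by 0.41 and 0.40 (adjusted p = 5.3e-07 and 9.7e-06). Hexa went from 1301 and 1312 to 1699 and 1777 and Smpd1 from 758 and 795 to 1054 and 1000.05 normalised counts. Glb1 was the exception. This β-galactosidase, whose activity is used to stain senescent cells, had untreated normalised counts of 570.4 and 556 and treated ones of 566 and 584. Its groups overlapped and the log2 fold change of 0.030 was not called (adjusted p = 0.68), with a 95% interval from -0.10 to 0.16, an interval below the value of Neu1 and of Ctsa, its partners in a complex. The exons of Tmppe share 5.5% of the Glb1 exon bases on the same strand, and Tmppe was not called either (0.074, adjusted p = 0.3).

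All 5 enzymes of glycogen, glycoprotein and lipid breakdown were called higher, with a median of 0.87, where 33.5% of all tested genes were called higher. Man2b1, the α-mannosidase, had 2334 and 2313 normalised counts when untreated, against 6651 and 6676 after genistein, an increase of 2.87-fold with the smallest adjusted p of the 43 genes (log2 fold change 1.52, standard error 0.033, adjusted p = 1.2e-15). Manba, the β-mannosidase, had 231 and 209.6 normalised counts without genistein, compared with 455 and 479 in its presence (log2 fold change 1.08, standard error 0.086, adjusted p = 9.4e-09). Ppt1, which removes fatty acids from proteins, rose by 0.87 (adjusted p = 3.3e-10), from 802 and 763 to 1447 and 1413 normalised counts. Gaa, the glucosidase that degrades glycogen, had untreated normalised counts of 1919 and 1868 and treated ones of 2715 and 2668 and a log2 fold change of 0.51 (adjusted p = 4.9e-09). Lipa, which splits cholesteryl esters, rose by 0.48 (adjusted p = 3.4e-08), from 1573 and 1571 to 2256 and 2134 normalised counts. Both genistein libraries lay above both untreated ones in all 5 genes, as in 40.7% of all tested genes, while 44.6% were separated downwards.

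**Figure D3:**
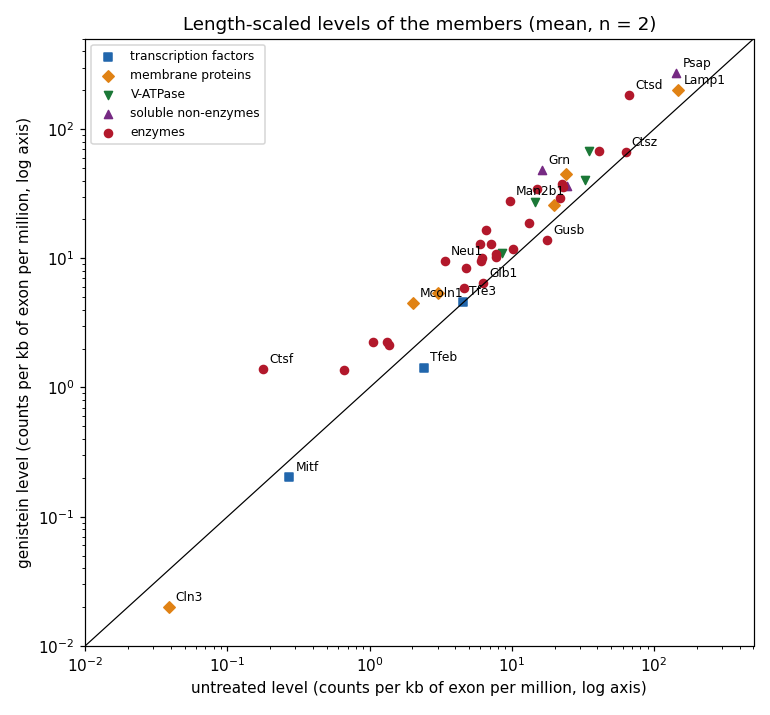
Mean level of each of the 43 genes in the untreated (horizontal) and genistein (vertical) libraries, in CPM per kilobase of merged exons, on log axes, with n = 2 per group and the diagonal marking equal levels. Most genes lie above the diagonal over the whole range of levels, Tfeb, Mitf, Gusb and Cln3 lie below it, and Ctsf lies farthest above it.

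Levels per length spanned from 0.0388 for Cln3, which had at most 7 raw counts per library, to 146 for Lamp1 in the untreated libraries. The lengths are merged exons of an annotation later than the one counted, and the order of the genes depends on them. After Cln3 the lowest were Ctsf at 0.177, Mitf at 0.272 and Idua at 0.665, and below Lamp1 came Psap at 143, Ctsd at 67.1 and Ctsz at 63.0. The values of single libraries for Lamp1 (149.8 and 143) and Psap (146 and 139.6) overlapped in the untreated group, although Lamp1 was the higher of the 2 within each library. With genistein Psap, at 275 and 269.9, lay above Lamp1, at 198 and 205, in both libraries. Ctsd, at 183 and 183, overtook neither but came near Lamp1.

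The roles are set side by side here. The medians were 0.72 for enzymes, 0.84 for membrane proteins, 0.63 for V-ATPase genes and 0.93 for the soluble proteins, against -0.42 for the 3 factors. The factor median is that of Mitf, a scarce RNA, and it moved between -0.66 and -0.21 when 1 library was left out. Differences between the 4 rising classes were not tested, and their ranges overlapped, from -0.34 to 2.97 for enzymes, from 0.39 to 1.15 for membrane proteins, from 0.30 to 0.95 for V-ATPase and from 0.58 to 1.56 for the soluble proteins.

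Other lysosomal genes, listed from general knowledge but with earlier results of these data known, were then compared as a description. Of all tested genes, 33.5% were called higher and 38.2% lower. Of 28 further lysosomal enzymes, 25 were tested, 20 were called higher (80%) and 2 lower (8%), with a median log2 fold change of 0.64. Hyal1, a hyaluronidase, rose from 20.98 and 14.8 to 125 and 101 normalised counts (2.65 on the log2 scale, adjusted p = 2.1e-08), and the next largest were the cathepsin Ctso at 1.54 and the amidase Naaa at 1.44. The dipeptidyl peptidase Ctsc and the hyaluronidase Hyal2 fell, with log2 fold changes of -0.86 and -0.59 (adjusted p = 9.0e-10 and 2.2e-07). Among 22 further membrane proteins, 20 were tested, 14 were called higher (70%) and 2 lower (10%), with a median of 0.46. The cystine exporter Ctns, the chloride transport partner Ostm1 and the amino acid sensor Slc38a9 led with 1.31, 1.19 and 1.06. Mfsd12 and Cd63 were lower by small amounts, at -0.23 and -0.13.

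**Figure D4:**
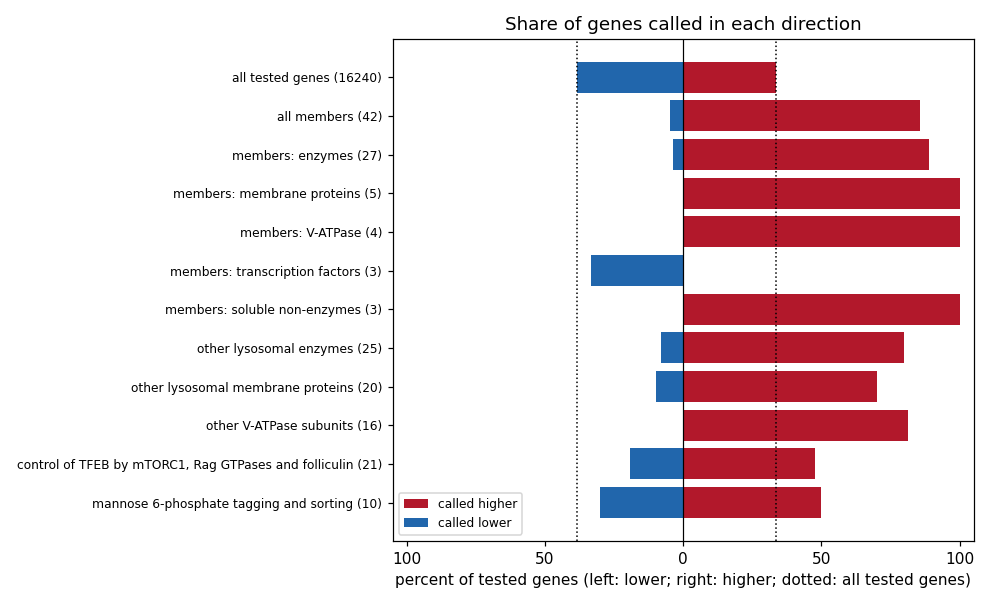
Percent of tested genes called higher (red, to the right) and lower (blue, to the left) for all tested genes, for the 42 tested genes and their classes, and for the lists of further genes, with the number tested in brackets; dotted lines mark the shares of all tested genes, 33.5% and 38.2%. The red bars of all classes but the transcription factors and of all the lists shown, with TFEB control and mannose phosphate sorting among them, end right of the dotted line.

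The genes that control TFEB at the lysosome were called in both directions. Of 24 such genes 21 were tested, 10 were called higher (47.6%) and 4 lower (19%), with a median of 0.13. All tested genes were also called in both directions, 33.5% higher and 38.2% lower. Folliculin and its partners form the switch that lets mTORC1 act on TFEB, and all were called higher. Fnip1 had 1964 and 2009 normalised counts untreated, against 4011 and 4238 after genistein (log2 fold change 1.05, adjusted p = 7.5e-13). Flcn and Fnip2 changed by 0.67 and 0.45 (adjusted p = 1.8e-09 and 2.8e-07). Rragc, a Rag GTPase that recruits mTORC1, changed by 0.48 (adjusted p = 1.2e-08). Rraga, another Rag GTPase that was named after its value was seen, was not called, at 0.0046 (adjusted p = 0.94), and Rragb had no count in any library. Rragd, a paralogue of Rragc, was too scarce to test, at 2, 3, 17 and 8 raw counts in untreated 1, untreated 2, genistein 1 and genistein 2. Zkscan3, a zinc finger protein described as a repressor of autophagy and lysosome genes, was also higher, at 0.73 (adjusted p = 1.8e-09).

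The 4 lower genes of that list were Mlst8, Rheb, Ppp3cb and Ppp3r1. Mlst8, a subunit of mTORC1, changed by -0.60 (adjusted p = 5.3e-07), and Rheb, the GTPase that turns the complex on, by -0.16 (adjusted p = 0.0018). Ppp3cb and Ppp3r1, subunits of the phosphatase calcineurin that can dephosphorylate TFEB, changed by -0.53 and -0.29 (adjusted p = 8.5e-09 and 3.1e-06). Ppp3ca, a catalytic subunit of the same phosphatase, was called higher at 0.50 (adjusted p = 1.8e-09), so the calcineurin genes of the list went in both directions. Mtor, like Rheb and Ppp3ca named after its value was seen, was not called, at 0.093 (adjusted p = 0.051). Lysosomal enzymes also need tagging with mannose phosphate and sorting receptors to reach their place. All 10 genes of that list were tested, 5 were called higher (50%) and 3 lower (30%), with a median of 0.15. Those shares stand beside 33.5% and 38.2% of all tested genes. The large receptor Igf2r had 5349 and 5389 normalised counts untreated and 9459 and 9597 with genistein (log2 fold change 0.83, adjusted p = 8.6e-12), followed by Gnptg at 0.81 and the sorting receptor Sort1 at 0.80. Nagpa, M6pr, the smaller receptor, and Gga1 were lower, at -0.52, -0.31 and -0.13.

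Promoter sequences were examined because the genes moved together and because TFEB has a known recognition sequence. RefSeq promoter windows on GRCm38.p6, from 250 bases before to 50 bases after a start site, were given for 37 of the 43 genes. TCACGTG, the E-box CACGTG preceded by T, was searched on both strands, so that CACGTGA counts as the same motif and TCACGTGA holds it in both directions. It was found in 13 of the 37 genes (35.14%), in 6.96% of the tested genes with a window and in 4.29% of all genes with a RefSeq window. CACGTG alone, which every TCACGTG contains, was in 40.54% of the 37 genes and in 11.72% of the tested genes. TCATGTG, a related MITF site searched on both strands, was in 6 of the 37 and in 2.57% of the tested genes. The genes were listed as lysosomal genes and a TFEB network, so a larger share of a TFEB motif among them is no independent result. The difference in shares was not tested. A match is a description of letters and not evidence of binding.

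The stretches that hold the motif are shown for 9 genes, to display how the same letters recur near the start sites of membrane protein, V-ATPase and enzyme genes that rose, and of Glb1, which was not called. Each is written 5′ to 3′ on the strand of the gene with TCACGTG or CACGTGA in capitals.
Lamp1, chr8:13159087-13159163, plus strand: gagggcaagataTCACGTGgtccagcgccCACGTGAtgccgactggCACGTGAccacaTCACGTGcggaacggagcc
Mcoln1, chr8:3500435-3500492, plus strand: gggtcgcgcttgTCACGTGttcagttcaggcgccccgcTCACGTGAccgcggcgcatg
Atp6v0d1, chr8:105566049-105566080, minus strand: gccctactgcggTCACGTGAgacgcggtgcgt
Atp6v1a, chr16:44139372-44139403, minus strand: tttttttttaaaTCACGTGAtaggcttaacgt
Ctsd, chr7:142387897-142387948, minus strand: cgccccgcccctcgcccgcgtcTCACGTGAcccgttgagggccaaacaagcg
Ctsa, chr2:164833748-164833796, plus strand: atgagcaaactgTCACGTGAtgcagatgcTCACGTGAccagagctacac
Gla, chrX:134601181-134601245, minus strand: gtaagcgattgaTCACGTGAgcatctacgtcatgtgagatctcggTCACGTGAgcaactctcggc
Naglu, chr11:101070008-101070038, plus strand: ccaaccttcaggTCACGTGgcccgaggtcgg
Glb1, chr9:114401017-114401047, plus strand: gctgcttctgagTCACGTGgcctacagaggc

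Lamp1 carried 4 copies, whose first bases lay 62, 45, 28 and 16 bases before the start site. Mcoln1 held 2 copies, 72 and 46 bases before its start, and Gla held 2, at 228 and 195 bases. Ctsd also held 2, at 245 and 99 bases, of which only the nearer is shown. The Atp6v0d1 copy began 4 bases before the start and the Naglu copy 74 bases before it. For Ctsa the window belongs to an alternative start site inside the gene, with 1 copy 13 bases before and 1 copy 4 bases after it, and the window at the 5′ end held none. The Atp6v1a window, chr16:44139210-44139509, also lies inside its minus-strand gene, which begins at 44139705. Distances are from RefSeq start sites, and those of Ctsd and some other genes shown lie inside the annotated gene. No TCACGTG was found in the windows of Tfeb, Tfe3 or Mitf. The windows of Grn, Man2b1, Neu1, Tpp1, Ctsl and Ctsf, which were among the largest changes, also lacked it. Those of Ctsl and Ctsf did hold CACGTG, and those of Grn and Tpp1 held TCATGTG. Man2b1 and Neu1 had none of the motifs searched.

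Changes were set beside the presence of the motif. Of the 12 tested genes with it, 11 were called higher and 0 lower, with a median log2 fold change of 0.70. Of the 24 tested genes whose windows lacked it, 19 were called higher and 2 lower, with a median of 0.72. Over all tested genes with a window, 41.3% of the 698 with the motif and 34% of the 9324 without it were called higher, and 36.8% and 41% were called lower. The difference was not tested.

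**Figure D5:**
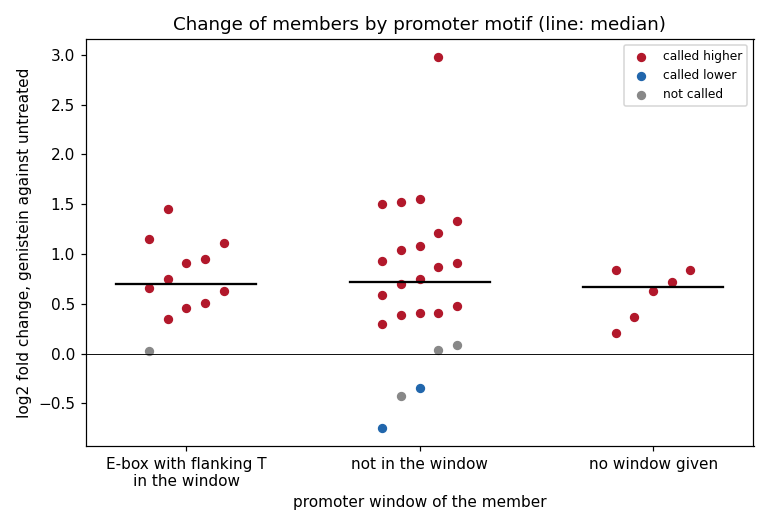
Log2 fold change of the tested genes on the vertical axis, split by whether the promoter window held TCACGTG on either strand (12 genes), lacked it (24 genes) or was not given (6 genes), with the median as a line and red, blue and grey points for genes called higher, lower and not called. The medians with and without the motif, 0.70 and 0.72, lie at nearly the same height.

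The positions of the genes on GRCm38 and overlapping neighbours bear on a few values. Exons of 15 of the 43 genes share bases with another counted gene, for 14 of them on the other strand only. Tfeb lies at chr17:47737030-47792419, Gusb at chr5:129989011-130003049, Grn at chr11:102430315-102437048, Man2b1 at chr8:85083270-85098282 and Ctsf at chr19:4855130-4860918, and none of these 5 but Grn overlapped a counted gene. Grn shares 68 bases, or 2% of its exon bases, with Fam171a2, which was not called (-0.038, adjusted p = 0.58). The largest shares were those of Arsb (32.3%, with Gm26527), Sgsh (21.6%, with Card14) and Arsa (18.8%, with C230037L18Rik). These neighbours had at most 13 raw counts in any library, far under those of the 3 genes. Cln3 shares 442 bases with Apobr on the other strand, which had 71.9 and 76.2 normalised counts in the untreated and 203 and 180.2 in the genistein libraries. Annotation later than the one counted also places Gm49369, which has no row in the count table, over 34.4% of the Ctsd exon bases on the same strand.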

How the data were processed

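Stranded, rRNA-depleted total RNA libraries were sequenced from 2 untreated and 2 genistein samples. The authors trimmed the reads, aligned them to mm10 with STAR, keeping reads with several matches, and counted genes and repeats with TEtranscripts, and the deposited values are raw counts. Groups came from the labels. Library totals were 28591958 to 31464284. An entry with no name (0.00208% to 0.00314% of counts) was left out. Genes and repeats that passed filterByExpr were fitted together with edgeR 4.0.16 (R 4.3.3), with TMM factors and group as the only term, using the quasi-likelihood test with Benjamini-Hochberg adjustment. Standard errors were derived from the F statistic. Of these steps, the filter, TMM scaling and quasi-likelihood test were run on simulated counts in which far fewer genes changed than were called here. That run does not cover the lists or the promoter search. With 2 libraries against 2, a two-sided exact permutation test of a single value cannot go below 0.333, so none was used. The 2 libraries of a group differed by more than counting error (chi-square divided by its degrees of freedom, 5.48 untreated and 12.1 genistein). Levels between genes were divided by merged exon length (GENCODE M21, GRCm38). Symbols were matched for 47310 identifiers. Similar transcripts were searched with blastn 2.17.0 (at least 95% identity over 300 bases), and Mcoln1 shares such a stretch of 400 bases with A230057D06Rik. Alternatives were RLE factors, library totals, factors from genes alone, no filter, DESeq2 1.42.0, a replicate block, leaving out each library and other thresholds. All 43 genes were named, and from each further list up to 3 higher and 3 lower genes with the largest changes, with Flcn, Fnip1, Fnip2, Rragc and Rragd besides, and genes outside this rule were named after their values were seen. The genes and lists were chosen with earlier results of these data known.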

Additional observations from a re-analysis of the deposited data

How the results depend on the processing

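The 36 genes called higher and 2 called lower were again 36 to 37 and 2 under all scalings, filters, tools and thresholds on the adjusted p that were tried, and no single gene reversed or lost its call. The shares of all tested genes changed with the setting, from 33.5% higher and 38.2% lower in the main fit. They were 24.9% and 32.7% with DESeq2, 21.4% and 25.4% without a filter, and 37.5% and 34.1% with library totals. With an absolute log2 fold change over 0.5 in place of 1 the stricter rule was met by 27 higher genes and 1 lower gene. With library totals it was met by 13, adding Atp6v0d1 and Psap. Shares of all tested genes under the stricter rule were taken for the main fit only. Library totals gave median log2 fold changes of 0.78 for all genes of the list, 0.79 for enzymes, 0.91 for membrane proteins, 0.70 for V-ATPase and 1.00 for soluble proteins. Factors from genes alone gave 0.75, 0.76, 0.88 and 0.68 for the first 4 of these. Without a filter, when Cln3 enters, they were 0.67, 0.69, 0.62 and 0.61. Leaving out 1 library gave medians of 0.67 to 0.73 for the list, 0.67 to 0.74 for enzymes and 0.82 to 0.87 for membrane proteins. The medians were 0.62 to 0.64 for V-ATPase, 0.89 to 0.96 for soluble proteins and -0.66 to -0.21 for the transcription factors. The last range follows Mitf, at -0.21 without genistein replicate 1 and -0.66 without genistein replicate 2. Idua missed the stricter rule without untreated replicate 2, where its log2 fold change was 0.95. Ctsf missed it on its mean count when either genistein replicate was left out, while its log2 fold change was 2.77 without genistein replicate 1 and 3.15 without genistein replicate 2. A fit with a replicate block gave 36 higher and 2 lower genes, 11 past the stricter rule and a median of 0.71. It called 32.9% of all tested genes higher and 37.8% lower. Deviations of same-numbered libraries had a correlation of -0.026. With 2 libraries per group this is a single comparison and does not show whether the numbers pair the libraries, and the labels do not say that they do. Except where values are given here, the cause of a shift was not tested. Low counts left Cln3 untested.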
